A study of Mus musculus with 2 samples.

Results

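The genes Mir128-1, Mir128-2, Mir138-1, Mir138-2, Mir129-1, Mir129-2, Mir7-1, Mir7-2 and Mir7b make 4 families of microRNAs (miRNAs) known from neurons, each from 2 or 3 gene copies on different chromosomes. They were taken by symbol from the count tables, through their Ensembl identifiers, and are 9 of 1973 miRNA genes. The rule used no measured value. Libraries of RNA under 30 bases in size came from single neural tubes of 2 newborn mice of strain B6NCrl, pup 2 and pup 1 of 1 dam, at postnatal day 0. The labels give no genotype or treatment beyond the strain, and the sex was not collected. There is 1 group of 2 libraries and no comparison between conditions. Each value below is given for pup 2 and pup 1, and a spread is the SD over these 2 littermates (n = 2).

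A miRNA is cut from a hairpin precursor, and 1 arm of the hairpin, the mature miRNA of about the length of the reads, guides the repression of messenger RNAs through its seed (bases 2 to 8). Several miRNAs of the nervous system are made by more than 1 gene, whose precursors differ while the guiding arm is the same. miR-128 is abundant in neurons of the brain, and mice that lack it in forebrain neurons have seizures. miR-138 limits the size of dendritic spines in cultured rat neurons. miR-129 represses a potassium channel in dendrites, and miR-7, known from neuroendocrine cells, is bound by the circular RNA Cdr1as in the brain.

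The guiding arms fall into 4 seed groups and are shown with the seed in capitals. They were taken from the RefSeq miRNA table (build GRCm38.p6, the same assembly as mm10), in which all 9 genes were found.
miR-128-3p: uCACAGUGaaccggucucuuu
miR-138-5p: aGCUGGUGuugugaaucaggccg
miR-129-5p: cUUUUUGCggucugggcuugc
miR-7a-5p: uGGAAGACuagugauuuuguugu
miR-7b-5p: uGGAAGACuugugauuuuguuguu
Mir7-1 and Mir7-2 make miR-7a-5p and Mir7b makes miR-7b-5p. Over the 23 bases compared, these differ by 1 substitution, A10U, counted from 1 at the 5′ end with the miR-7a base first. The seed of the miR-7 group is the same in both. No other mature miRNA in the RefSeq table has the seed of miR-128-3p, miR-138-5p or miR-129-5p.

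The copies differ in the rest of the precursor, so all 9 precursors are given, 5′ to 3′, with the longest stretch shared by a pair in capitals. For Mir7b the capitals mark the stretch shared with Mir7-1, and for Mir7-1 and Mir7-2 the stretch they share with each other.
Mir128-1: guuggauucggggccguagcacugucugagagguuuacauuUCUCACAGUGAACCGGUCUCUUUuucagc
Mir128-2: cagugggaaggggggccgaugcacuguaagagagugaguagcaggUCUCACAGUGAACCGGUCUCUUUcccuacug
Mir138-1: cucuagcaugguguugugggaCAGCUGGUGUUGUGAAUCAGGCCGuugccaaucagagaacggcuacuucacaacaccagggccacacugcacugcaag
Mir138-2: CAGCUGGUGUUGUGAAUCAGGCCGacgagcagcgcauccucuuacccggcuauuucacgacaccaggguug
Mir129-1: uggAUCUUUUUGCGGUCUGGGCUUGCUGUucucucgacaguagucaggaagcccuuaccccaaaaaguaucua
Mir129-2: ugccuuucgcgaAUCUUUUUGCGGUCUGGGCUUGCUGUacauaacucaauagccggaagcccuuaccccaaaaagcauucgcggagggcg
Mir7-1: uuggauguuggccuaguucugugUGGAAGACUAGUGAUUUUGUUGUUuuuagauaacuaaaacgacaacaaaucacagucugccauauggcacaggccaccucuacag
Mir7-2: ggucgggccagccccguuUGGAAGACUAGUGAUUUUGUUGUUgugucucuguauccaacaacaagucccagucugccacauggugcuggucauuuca
Mir7b: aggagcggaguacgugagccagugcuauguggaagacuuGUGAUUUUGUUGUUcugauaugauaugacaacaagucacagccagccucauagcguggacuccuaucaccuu
The shared stretch is 23 bases long in the Mir128 pair, 24 in the Mir138 pair, 26 in the Mir129 pair and 24 between Mir7-1 and Mir7-2. It holds the whole guiding arm in each of these 4 pairs. Mir7b shares at most 14 bases with either of the other miR-7 genes. Outside the stretch the precursors diverged in part. Over a whole alignment they were identical at 71.4% of positions in the Mir128 pair and 54.5% in the Mir138 pair. The share was 68.5% in the Mir129 pair and 68.8% between Mir7-1 and Mir7-2.

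The tables list reads that fit several places in the genome apart from the genes, 35.4% of the reads of pup 2 and 35.7% of those of pup 1. A read that lies wholly inside the shared stretch fits both copies. The stretch ends with the last base of the annotated arm in miR-128-3p and miR-138-5p, 1 base past it in miR-7a-5p and 3 bases past it in miR-129-5p. The other arm of each precursor, where RefSeq lists it, was found whole in no other annotated precursor. Most of miR-129-2-3p nevertheless lies in a second, shorter stretch that the Mir129 precursors share, and RefSeq lists no 3p arm for Mir129-1. Reads inside that stretch also fit both Mir129 copies. The values below are therefore counts of uniquely placed reads per precursor gene, not levels of the mature miRNA, and the arms are not told apart in the tables. Of the 22-base windows of a precursor, 2 of 49 were found in another precursor for Mir128-1, 2 of 55 for Mir128-2, 3 of 78 for Mir138-1 and 3 of 50 for Mir138-2. They were 5 of 52 for Mir129-1, 5 of 69 for Mir129-2, 3 of 87 for Mir7-1, 3 of 76 for Mir7-2 and 0 of 90 for Mir7b. The second Mir129 stretch is too short for these windows. With windows of 20 bases the counts were 9 of 54 for Mir129-1 and 9 of 71 for Mir129-2. Windows were compared with annotated precursors, not with the whole genome.

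**Figure D1:**
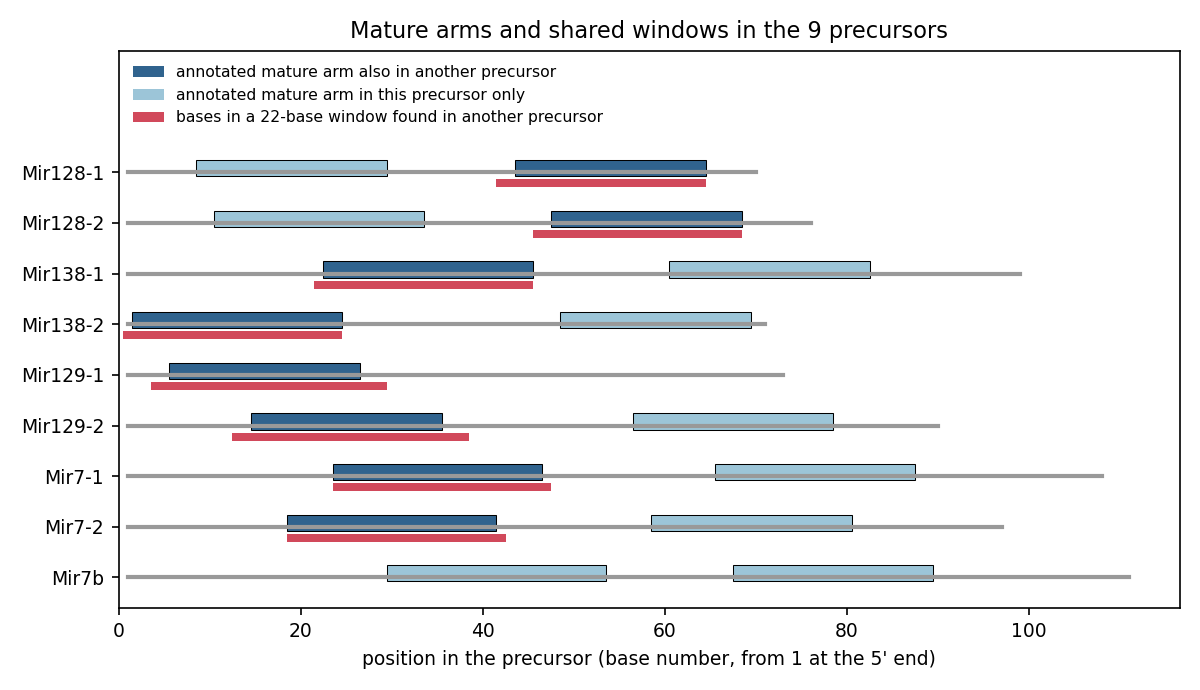
Each grey line is a precursor, drawn by base number from its 5′ end, with the annotated mature arms as boxes and the bases that lie in a shared 22-base window as red bars. The red bars cover the guiding arm of 8 genes, and Mir7b has none.

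The copies also differ in their surroundings (mm10 positions, GENCODE M21 annotation). An intron of R3hdm1 holds Mir128-1 (chromosome 1, 128202361 to 128202430, + strand), and an intron of Arpp21 holds Mir128-2 (chromosome 9, 112118636 to 112118711, - strand). Both hosts encode proteins with an R3H domain that binds nucleic acids. Mir7-1 (chromosome 13, 58392779 to 58392886, - strand) is intronic in Hnrnpk, which encodes an RNA-binding protein present in most cells. The transcribed pseudogene Gm47135 has Mir138-1 in an exon (chromosome 9, 122682876 to 122682974, + strand), and the long noncoding RNA gene C78859 has Mir138-2 in an exon (chromosome 8, 94324311 to 94324381, + strand). Mir129-1 (chromosome 6, 29022619 to 29022691, + strand) is exonic in the long noncoding RNA gene Gm3294. Mir129-2 (chromosome 2, 94241364 to 94241453, - strand) is intronic in the long noncoding RNA gene Mir670hg, and Mir129b is annotated on the other strand there. Mir7-2 (chromosome 7, 78888277 to 78888373, + strand) and Mir7b (chromosome 17, 56242988 to 56243098, + strand) have no other annotated gene over them. The tables count miRNA genes only, so host transcripts were not analysed here.

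The libraries held 3660693 counts on the genes' own strand in pup 2 and 3216453 in pup 1, so 1 count equals 0.273 and 0.311 CPM (counts per 1000000 own-strand counts). Detection required 10 or more counts in each pup, and 352 genes reached it, among them all 9 described here. Of the 8 miRNA genes listed as neuronal markers, 6 were detected, and Mir124a-2 and Mir124a-3 were below the minimum. Their summed level was 22047 CPM in pup 2 and 19792 CPM in pup 1. Mir124a-1, Mir124a-2 and Mir124a-3 are gene copies of 1 miRNA, and reads that fit more than 1 of them are not counted. Their low counts are therefore no measure of the level of miR-124. In a bulk sample, fewer cells of a type and less RNA per cell cannot be told apart. Counts on the opposite strand of the 9 genes were at most 1 per library.

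The 9 genes had 37150 counts in pup 2, 1.01% of its total, and 27278 in pup 1, 0.848% of its total. The exact 95% binomial intervals were 1.00 to 1.03% and 0.838 to 0.858%; they cover counting error only. miR-128 was the largest family, with 4437 CPM in pup 2 and 3550 CPM in pup 1 over its 2 genes. miR-138 followed with 3193 and 2244 CPM, the 3 miR-7 genes with 1961 and 1853 CPM, and miR-129 with 558 and 833 CPM. The means were 3994 CPM ± 627 for miR-128, 2719 CPM ± 671 for miR-138, 1907 CPM ± 76.3 for miR-7 and 695 CPM ± 195 for miR-129 (SD, n = 2). In both pups the order of the families was the same. The single genes spanned 19.3-fold, from Mir128-1, ranked 46 of all genes by mean CPM, to Mir129-1, ranked 187, and 8 of the 9 lay above the median of the detected genes, 200.5 CPM.

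**Figure D2:**
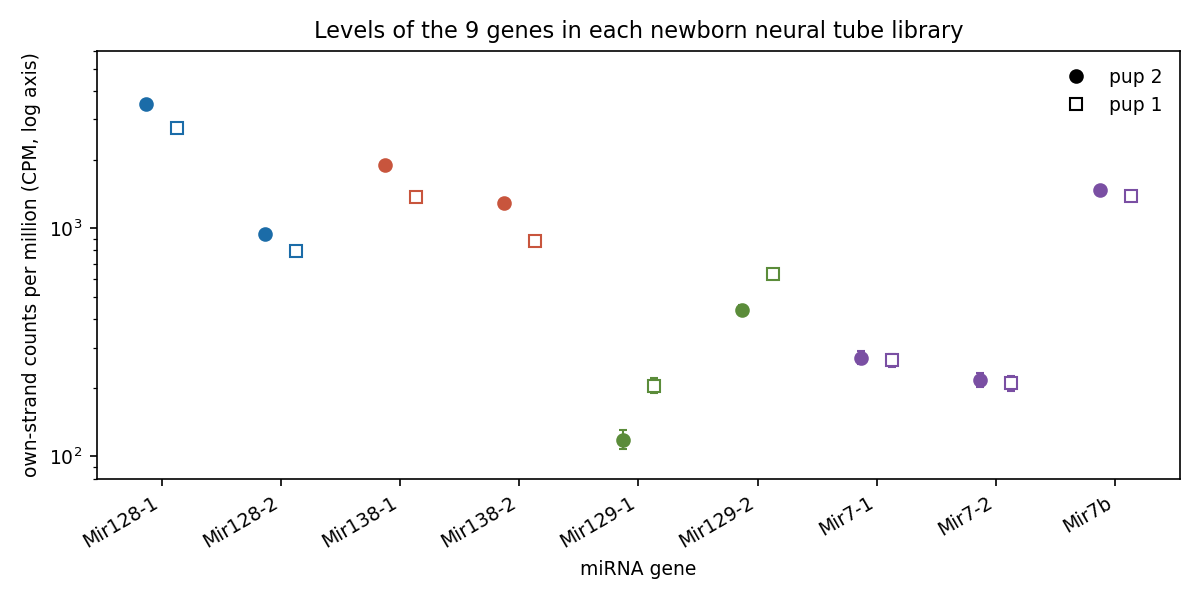
CPM of each gene (log axis) in pup 2 (filled circles) and pup 1 (open squares), coloured by family, with exact 95% Poisson intervals of the counts, most of them smaller than the symbols. The Mir128 and Mir138 genes are higher in pup 2 and the Mir129 genes lower. Each miR-7 gene has close values in the 2 pups, with Mir7b above Mir7-1 and Mir7-2.

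Levels of copies were compared per gene, since the annotated arms of all copies are 21 to 24 bases long and a read covers an arm, not a precursor. The mean log2(CPM + 1) of copies was called different where the difference exceeded a 95% limit, taken from SDs between the pups pooled over detected genes of like abundance. A bias between genes that is the same in both libraries is not part of these SDs. By this rule 5 of the 6 pairs within families differed. The background is high: 92.0% of all pairs of detected genes differ by it, so the count says nothing particular about copies.

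Mir128-1, in R3hdm1, had 3493 CPM in pup 2 and 2758 CPM in pup 1. Mir128-2, in Arpp21, had 944 CPM in pup 2 and 792 CPM in pup 1. Mir128-1 was the higher copy in both libraries, and the values of the copies did not overlap. Its mean lay 3.59-fold above that of Mir128-2, a log2 difference of 1.84 against a limit of 0.37, with bounds from 1.47 to 2.21. Of the counts of both copies Mir128-1 held 78.7% in pup 2 (exact 95% binomial interval 78.1 to 79.4%) and 77.7% in pup 1 (76.9 to 78.4%).

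Mir138-1 had 1901 CPM in pup 2 and 1368 CPM in pup 1. Mir138-2 had 1292 CPM in pup 2 against 877 CPM in pup 1. Mir138-1 was higher in each pup and the copies did not overlap, although Mir138-1 in pup 1 came close to Mir138-2 in pup 2. The ratio of the copies was 1.47 in pup 2 and 1.56 in pup 1, a log2 difference of 0.60 with bounds from 0.23 to 0.97. Per base of the annotated precursor, 99 bases for Mir138-1 and 71 for Mir138-2, the log2 difference was 0.12 and no longer passed the limit. Mir138-1 held 59.5% of the pair's counts in pup 2 (58.6 to 60.4%) and 60.9% in pup 1 (59.8 to 62.1%).

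In miR-129 the order of the copies was the other way round by number. Mir129-1 had 119 CPM in pup 2 and 205 CPM in pup 1. Mir129-2, in Mir670hg, had 439 CPM in pup 2 against 628 CPM in pup 1. Mir129-2 was the higher copy in both pups, without overlap. The log2 difference of Mir129-1 from Mir129-2 was -1.75, with bounds from -2.18 to -1.31, a 3.36-fold lower level. Mir129-1 held 21.3% of the pair's counts in pup 2 (19.5 to 23.1%) and 24.6% in pup 1 (22.9 to 26.2%).

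The miR-7a genes were the closest of the 6 pairs. Mir7-1, in Hnrnpk, had 271 CPM in pup 2 and 263 CPM in pup 1. Mir7-2 had 216 CPM in pup 2 against 209.9 CPM in pup 1. Mir7-1 was the higher in each pup by 1.25-fold, and its log2 difference of 0.33 did not pass the limit of 0.41, with bounds from -0.09 to 0.74. With bounds this wide the copies are not shown to be equal. Mir7-1 held 55.6% of the pair's counts in pup 2 (53.3 to 58.0%) and 55.7% in pup 1 (53.1 to 58.2%). These intervals cover counting error only, and both lie above equal shares. The limit does not use the pairing of the copies within a library, where their ratio was 1.25 in each pup. Mir7b stood apart from Mir7-1 and Mir7-2, with 1474 CPM in pup 2 and 1380 CPM in pup 1. It lay 5.32-fold above Mir7-1 (log2 difference of Mir7-1 from Mir7b -2.41, bounds -2.78 to -2.04) and 6.67-fold above Mir7-2 (-2.74, bounds -3.11 to -2.37). Mir7b also has a guiding arm of its own, 1 substitution from that of miR-7a, and the part of this in the difference was not tested. How many mismatches a read was allowed is not given in the sources used here, so reads placed at the wrong one of these genes cannot be counted, and both fold values hold for reads as the authors placed them.

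**Figure D3:**
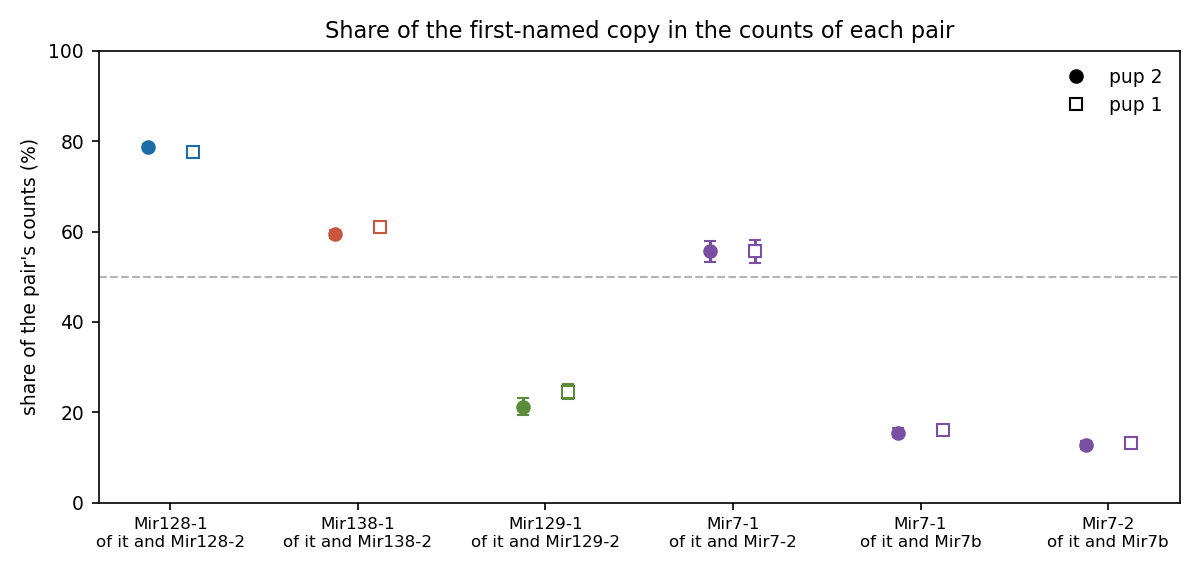
Share (%) of the first-named copy in the counts of each pair, in pup 2 (filled circles) and pup 1 (open squares), with exact 95% binomial intervals; the dashed line marks equal counts. Mir128-1 stands near 78%, Mir138-1 near 60%, and Mir129-1 at 21.3 and 24.6%; the intervals of the pups overlap in every pair.

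Ordered by mean CPM the genes ran Mir128-1, Mir138-1, Mir7b, Mir138-2, Mir128-2, Mir129-2, Mir7-1, Mir7-2 and Mir129-1. Of the 8 neighbouring pairs in this order, 5 differed beyond the limit. The exceptions were Mir138-1 and Mir7b (1.13-fold), Mir138-2 and Mir128-2 (1.23-fold), and Mir7-1 and Mir7-2 (1.25-fold). The neighbours were set by sorting on the levels compared, so this count describes the spacing of the genes and is no test. The levels are also given by surroundings, whose part in them was not tested. The 3 genes within protein-coding genes had mean levels of 267 to 3126 CPM, the 4 within noncoding genes or a pseudogene 162 to 1634 CPM, and the 2 with no gene around them 213 to 1427 CPM, so the ranges overlapped. As genes of like level, Mir324 (3274 CPM ± 288, SD, n = 2) and Mir652 (3010 CPM ± 132) ranked next to Mir128-1, and Mir92b (1638 CPM ± 21.1) and Mir187 (1605 CPM ± 30.03) next to Mir138-1. Mir296 and Mir341 ranked next to Mir7b, and Mir96 and Mir467c next to Mir129-2. These genes were picked by rank of mean CPM, so their likeness in level to the leading copies is by construction.

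The pups were compared over all genes with at least 10 counts summed, by an exact two-sided binomial test given the totals, with Benjamini-Hochberg adjustment over 413 genes. It compares 2 libraries with counting error only, not conditions. Of the 9 genes, 5 were higher in pup 2 (25.7% of all genes tested were), 2 were lower (15.3%) and 2 were not called. The 7 calls, 77.8% of the 9 genes, stand against 40.9% of all genes tested. Among the 187 genes with at least 1092 counts summed, the lowest sum of the 9, the share called was 69.0%, so the number of calls is near what genes of this depth show. The direction and size by family are given next.

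Both miR-138 genes were higher in pup 2. Mir138-2 had a log2 ratio of pup 2 over pup 1 of 0.56 (adjusted p of the binomial test 5.8e-60) and Mir138-1 one of 0.48 (1.5e-65), larger than 90.3% and 87.2% of the detected genes. Both miR-128 genes were higher as well, by 0.34 for Mir128-1 (adjusted p 5.1e-65) and 0.25 for Mir128-2 (1.0e-10). Both miR-129 genes were lower in pup 2. Mir129-1 fell by 0.79 (adjusted p 3.9e-18) and Mir129-2 fell by 0.52 (5.1e-26); 0.852% and 4.55% of detected genes had lower ratios. The miR-7 genes stayed close. Mir7b was higher by 0.10 (adjusted p 0.0037), a call that ended with other scalings of the libraries (adjusted p 0.14), while Mir7-1 and Mir7-2 had a log2 ratio of 0.04 each and were not called (adjusted p 0.69 and 0.72). With DESeq2 scaling the ratio of Mir7-1 was -0.0001, so no direction is given for it. The 2 copies of each of miR-128, miR-138 and miR-129 thus had ratios of the same sign. Among other miRNAs made by 2 genes, some pairs did so too (Mir16-1 0.30 and Mir16-2 0.40). Others did not (Mir125b-1 0.08 and Mir125b-2 -0.15), so a shared sign is not particular to these families.

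**Figure D4:**
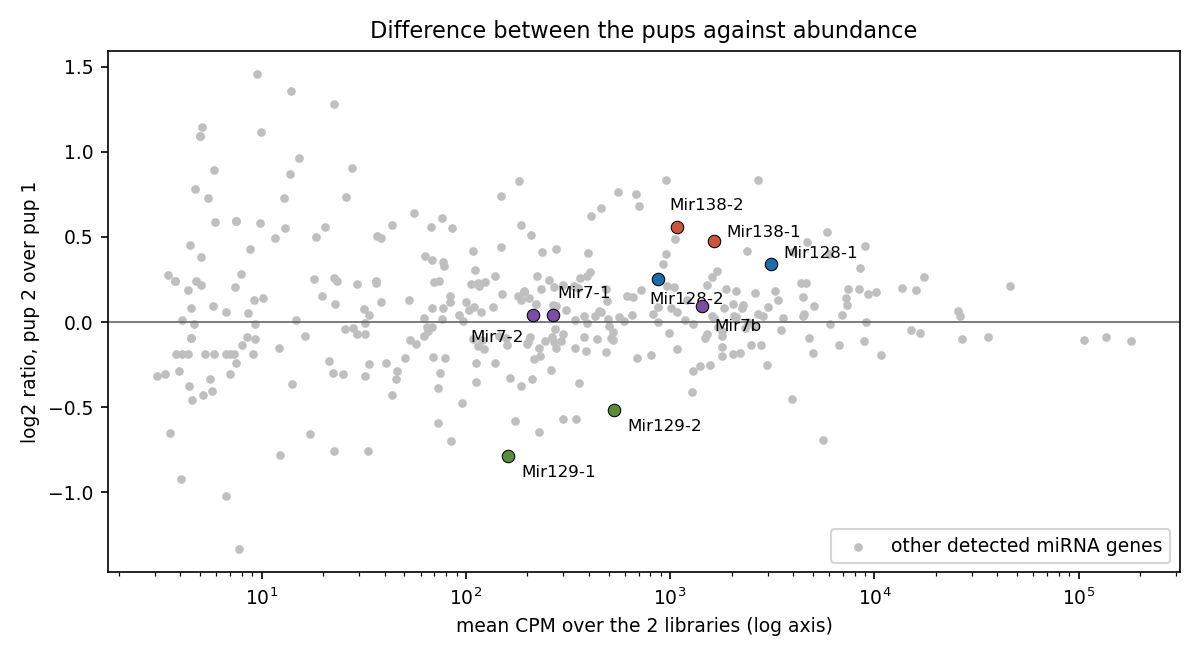
Log2 ratio of pup 2 over pup 1 against mean CPM (log axis) for the 352 detected genes, with the 9 genes coloured by family. The copies of a family lie near each other on the vertical axis, the Mir138 genes at 0.48 and 0.56 and the Mir129 genes at -0.79 and -0.52, amid a spread (SD) of 0.37 over all detected genes.

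The balance between copies moved by smaller log2 amounts than the family's level. For the Mir138 pair the log2 ratio of copies in pup 2 minus that in pup 1 was -0.08 (exact 95% interval of the conditional odds ratio, counting error only, -0.17 to 0.0033), against 0.51 for the family's level. For the Mir128 pair it was 0.09 (0.0043 to 0.17) against 0.32, and for Mir7-1 over Mir7-2 -0.0008 (-0.20 to 0.20) against 0.08 for the 3 miR-7 genes. The Mir129 pair moved most, by -0.27 (-0.47 to -0.07) against -0.58. The intervals of the Mir128 and Mir129 pairs exclude 0, although the intervals of their shares in single pups overlapped. No interval is adjusted for the number of pairs. In these libraries the balance of the Mir129 pair differed by more than its own counting error, and that of the Mir128 pair only just (lower bound 0.0043). Whether either difference exceeds the usual spread between littermates was not tested.

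Markers of other cell types moved between the pups too, and their part in these differences was not tested. The 3 of 3 genes of the list for sensory neurons and sensory organs (Mir182, Mir183, Mir96) were higher, summing to 5392 CPM in pup 2 and 3233 CPM in pup 1. The oligodendrocyte list (2 of 2 higher) summed to 2157 and 1789 CPM, the neuronal list had 4 of 8 higher and 1 lower, and the mesenchyme list (4 of 6 higher) summed to 11371 and 10663 CPM. The blood and microglia list (2 of 4 higher) summed to 575 and 490 CPM, the epithelium list (1 of 7 higher) to 538 and 499 CPM, and the skeletal muscle list (1 of 5 higher, with Mir1a-1, Mir133a-1 and Mir133a-2 at 0) to 105 and 70.6 CPM. Mir1a-1, Mir133a-1 and Mir133a-2 belong to pairs of copies that make the same miRNA, and reads that fit both copies are not counted. Their counts of 0 therefore do not show that these miRNAs were absent. Endothelial Mir126a (26007 and 27838 CPM) and Mir122 of hepatocytes (64.2 and 104 CPM) were lower in pup 2. None of the 4 genes of the neuroendocrine and islet list, whose tissues are rich in miR-7, was called (296 and 277 CPM).

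Of 20 other miRNA genes listed as neuronal, 19 were measured and 15 detected. The list holds all 8 genes of the neuronal marker list. Their share of the total was 2.75% in pup 2 and 2.52% in pup 1, beside 1.01% and 0.848% for the 9 genes described here. Of the 17 tested, 6 were higher, 3 lower and 8 not called, with a median log2 ratio of 0.12, beside 0.10 for the 9 genes and 0.04 for all genes tested. Mir137 (16076 CPM ± 1484, SD, n = 2) led the list with a fold of pup 2 over pup 1 of 1.14. Mir433 (2394 CPM ± 0.480) followed with a fold of 1.00, Mir153 (1838 CPM ± 74.3) with 1.06 and Mir132 (1602 CPM ± 205), induced by neuronal activity, with 1.20. By mean CPM, Mir128-1 stood between Mir137 and Mir433, and Mir138-1 between Mir153 and Mir132. Of the 9 genes, all but Mir7b have a guiding arm also found in another precursor, and reads that fit both are not counted. The other list holds gene copies too (Mir124a, Mir9 and Mir218), and the uncounted part of either list was not measured. These shares and ranks therefore compare counted reads, not levels of the mature miRNAs.

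The 4 pairs were also set beside other miRNAs made by 2 genes. Of 24 such pairs listed, 19 had both genes in the tables under the symbols listed, and 13 of these had both copies detected. The Mir92a and Mir450a pairs were missed, since their genes stand in the tables as Mir92-1, Mir92-2, Mir450-1 and Mir450-2. All of these were detected, at 353 and 22.9 CPM for Mir92 and at 5.72 and 5.44 CPM for Mir450. The values below leave them out. In those 13 the higher copy lay 1.18 to 79.6-fold above the lower, with a median of 4.33-fold, and 10 differed beyond the limit. The Mir128 (3.59-fold), Mir129 (3.36-fold), Mir138 (1.51-fold) and Mir7a (1.25-fold) pairs lay below that median and inside that range. By summed level of both copies, none of the 19 stood above miR-128 (3994 CPM), and 1, Mir125b (2800 CPM), stood above miR-138 (2719 CPM). Between the pups, the balance of copies moved by a median of 0.20 on the log2 scale in the 13 pairs. Its interval excluded 0 in 3 of them (Mir125b, Mir219a and Mirlet7c), against 2 of the 4 pairs described here. Whether an interval excludes 0 depends on the counts of a pair, and the pairs were not matched for counts. These numbers therefore do not show which set moved more.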

How the data were processed

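Small RNA libraries of 2 newborn mouse neural tubes were analysed from raw read counts for each miRNA gene, as deposited by the authors, given on either, the own and the opposite strand. The genome build was mm10, with genes of GENCODE release M4, per the notes deposited beside them; which aligner and counter were used is not stated there. Lines that name no gene stayed out of totals: unmapped (11.0% of reads in pup 2, 10.8% in pup 1), multimapping (35.4% and 35.7%), in no listed gene (1.69% and 1.89%) and ambiguous (0%).

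Own-strand counts were scaled to CPM by their total. Symbols and positions came from GENCODE M21, matched by Ensembl identifier for 1894 of 1973 genes. Copies were compared by mean log2(CPM + 1), with SDs pooled in 4 classes of abundance. Pups were compared with an exact binomial test and Benjamini-Hochberg adjustment at 0.05, with 0.5 counts added for log2 ratios. With 1 library a side there are no residual degrees of freedom for edgeR or DESeq2 tests. Both rules were run on simulated data, with Poisson counts for the binomial test and a fixed SD for the copy rule. Those data held no spread between animals for the binomial test and no bias between genes. They therefore checked the calculation only, not these sources of error. The limit that no count allows is 3 counts (0.820 CPM in pup 2, 0.933 CPM in pup 1). Reads carried no stated molecular identifiers, so intervals cover counting error only. The pups are separate animals of 1 litter.

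The genes and lists were chosen with earlier results of these data known. The intervals of the copy balance between pups and the calls among genes of like depth were added after the values were seen. Named genes were the 9 genes, the 4 highest of the other neuronal list, the genes ranked next to each family's leading copy, and other pairs set beside a result; marker genes are named as lists. Alternatives were TMM (edgeR) and DESeq2 scaling, other minimums, pseudocounts and strands, counts per precursor length, a total without Mir10b, leaving out each pup, and shared stretches of 20 and 18 bases. Precursors were aligned globally with Biopython. Versions were Biopython 1.88, scipy 1.17.1, numpy 2.4.6, pandas 2.3.3 and matplotlib 3.10.9 under Python 3.11.15, and DESeq2 1.42.0 and edgeR 4.0.16 under R 4.3.3.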

Additional observations from a re-analysis of the deposited data

How the results depend on the processing

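Recomputed with other settings, 77 values of the pairs, shares and counts stayed on their side of the limit or within the spread; 4 did not. Per base of the precursor, the log2 difference of Mir138-1 from Mir138-2 was 0.12 and within the limit, by construction of the unequal precursor lengths. In a total without Mir10b, shares became 0.487% (miR-128), 0.233% (miR-7) and 1.14% (all 9 genes), by construction of the smaller total. Leaving out each pup gave log2 differences of 1.80 to 1.89 (Mir128 pair), 0.56 to 0.64 (Mir138), -1.88 to -1.61 (Mir129), 0.325 to 0.326 (Mir7-1 over Mir7-2), -2.44 to -2.39 (Mir7-1 over Mir7b) and -2.76 to -2.71 (Mir7-2 over Mir7b). The lone library was then assumed to vary as the pooled SD. Scaling cannot move a ratio of copies except through the pseudocount, so those values are no sign of stability. Of the values of single genes, 118 did not move; 23 moved, with CPM up when Mir10b left the total, windows up with shorter stretches, and CPM down with either-strand counts for Mir7-1 (261 CPM) and Mir7-2 (208 CPM), 2 were the Mir7b calls lost with TMM and DESeq2 scaling (log2 ratio 0.05), and 1, the uncalled log2 ratio of Mir7-1, became -0.0001 with DESeq2 scaling. Genes called between the pups numbered 160 to 180 under the alternatives, against 169. No paired analysis was possible because the labels give 1 group. Depth limits little here, since the lowest count of the 9 genes in a library was 434; the uncounted multimapping reads limit what the levels mean.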

Other observations

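The arm opposite the guiding arm, the passenger arm, differs between copies where RefSeq lists it for both, and its seed is shared in some families only. miR-128-1-5p and miR-128-2-5p have the same seed (GGGGCCG), whereas miR-138-1-3p (GGCUACU) and miR-138-2-3p (CUAUUUC) have seeds that differ. In the miR-7 family, miR-7a-2-3p and miR-7b-3p share a seed (AACAAGU), and miR-7a-1-3p has another (AACAAAU). Over 22 bases, miR-7a-1-3p and miR-7a-2-3p differ by 3 substitutions (A7G, A10C and U21C, counted from 1 at the 5′ end, miR-7a-1-3p first). The tables hold no counts per arm, so the levels of these arms were not measured.

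The comparison covered the 17 other pairs matched by symbol that have a mature arm named in both genes. The 7 in which the copies part right after that arm had summed levels of 7.19 to 2800 CPM (median 691 CPM). The 10 pairs that share 1 or more bases past it had 0.429 to 2280 CPM (median 138 CPM), so the ranges overlapped. miR-128 (3994 CPM) and miR-138 (2719 CPM) belong to the first kind, and miR-129 (695 CPM, 3 bases) and miR-7a (480 CPM, 1 base) to the second. This comparison was made after the values were seen and has no test.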
